A study of Sus scrofa with 24 samples.

Results

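Gene expression of cells labelled intramuscular and subcutaneous adipocytes was compared on day 8 of adipogenic culture, the last day sampled. The comparison used the 3 libraries of group IMF-8d and the 3 libraries of group BF-8d, chosen by depot and day alone, which were 6 of the 24 libraries of the study. All cells were primary preadipocytes of Yorkshire piglets that were 6 days old, isolated with collagenase from the longissimus dorsi muscle (IMF) or from the subcutaneous fat of the back (BF). The study sampled both depots on days 0, 2, 4 and 8 with 3 replicates per depot and day. Both day 8 groups had received the same media, namely IBMX (a phosphodiesterase inhibitor), dexamethasone (a glucocorticoid) and insulin in serum-containing medium for 2 days, insulin alone for 2 days, and growth medium thereafter. The tissues were digested differently, with a higher collagenase concentration and a longer time for muscle than for back fat, so depot and isolation cannot be told apart. The study used 3 piglets, but the sources used here do not tie a replicate number to an animal. The p-values therefore measure a spread between libraries, which may be partly technical. That spread was estimated for each gene from all 24 libraries, not from the 6 day 8 libraries alone.

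Adipogenesis turns fibroblast-like precursors into cells that store triglyceride in lipid droplets. The hormone mixture induces the C/EBP transcription factors, these turn on PPARG and CEBPA, and both then switch on the genes of lipid uptake, synthesis and storage while the precursors leave the cell cycle and give up much of their fibrous matrix and contractile cytoskeleton. Subcutaneous fat forms earlier and stores more lipid than the fat between muscle fibres, whose amount decides the marbling of pork. Precursors isolated from muscle can include fibroblasts, pericytes and myogenic cells, so markers of those cell types were read beside the adipocyte genes.

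Values were FPKM (fragments scaled to transcript length and to the number of mapped fragments), a scale on which levels are given per length. The table held no read counts, so no counting interval is given, and the sequencing statistics of the study were not used here. The FPKM of a day 8 library summed to 316787 to 379163, with every IMF-8d library (350993 or more) above every BF-8d library (339374 or less), and 10311 to 10754 genes reached 1 FPKM. The median ratio size factors, which estimate the scale left between libraries, were 0.842 to 0.938 in BF-8d and 0.965 to 0.997 in IMF-8d. Across genes, which are not independent replicates, libraries correlated at 0.987 to 0.994 within IMF-8d, at 0.969 to 0.988 within BF-8d and at 0.928 to 0.960 between the groups. The BF-8d libraries stood apart from each other in interferon-stimulated genes, whose summed FPKM was 687, 12745 and 5257 in BF-8d replicates 1, 2 and 3 against 1069, 915 and 962 in the IMF-8d libraries. Results that rest on those genes are therefore given with and without single libraries.

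Of 16135 genes tested with limma on log2(FPKM + 1), 1123 were differentially expressed genes (DEGs), which is 6.96% of those tested. A DEG had a Benjamini-Hochberg adjusted p under 0.01 and an absolute difference (IMF-8d minus BF-8d) of at least 1 on the log2 scale. Higher levels in IMF-8d were found for 696 genes (4.31%) and lower levels for 427 genes (2.65%), so 62.0% of the DEGs were higher in intramuscular cells. That split depended on the scaling between libraries, since 48.5% of the DEGs were higher after median ratio scaling and 49.9% after quantile normalization. The median difference of all tested genes was 0.045. An unadjusted p under 0.05 was found for 44.7% of all tested genes, the share against which the counts of list members at that level are to be read. The libraries of both groups did not overlap for 1099 of the DEGs, against 48.9% of all tested genes (30.8% higher and 18.1% lower in IMF-8d). A difference of at least 2 was reached by 118 genes higher and 78 genes lower in IMF-8d, and one of at least 3 by 25 and 20 genes. All differences below are on the log2(FPKM + 1) scale, each ± its standard error (SE) and followed by its limma adjusted p (n = 3 libraries per group), and this scale understates the change of genes with low FPKM.

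**Figure D1:**
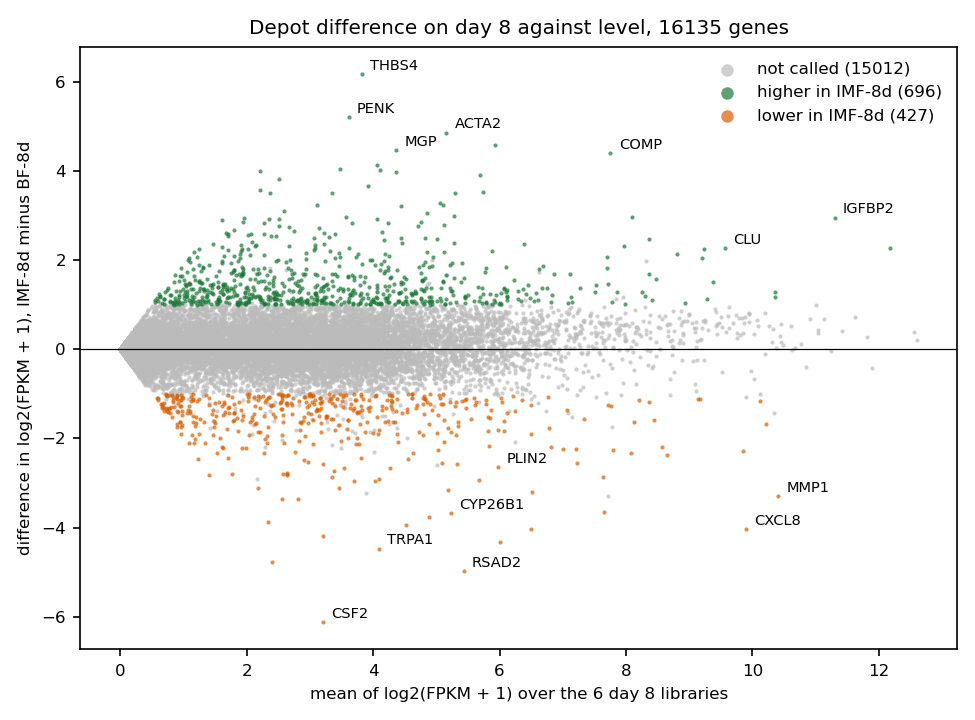
Difference between IMF-8d and BF-8d in log2(FPKM + 1) (vertical axis) against the mean log2(FPKM + 1) of the 6 day 8 libraries (horizontal axis), 1 point per tested gene. Green points are the 696 genes called higher and orange points the 427 genes called lower in IMF-8d, and THBS4 (6.17) and CSF2 (-6.11) lie at the upper and lower extremes.

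Of 24 mature adipocyte markers, 21 were in the table and 10 reached 1 FPKM in any day 8 library, namely LPL, CFD, PCK1, PNPLA2, AGPAT2, FABP4, RBP4, LIPE, CIDEC and GPD1. Among the 10 tested, 1 was higher and 2 were lower in IMF-8d, with a median difference of 0.029. The list summed to 563 to 965 FPKM in BF-8d and to 271 to 305 FPKM in IMF-8d, without overlap, and LPL and CFD were its most abundant members in BF-8d. PLIN1, which coats the large lipid droplet, was listed at 0 in all 6 libraries together with RETN, LGALS12 and FFAR4. ADIPOQ, which encodes adiponectin, was listed at 0 in 5 libraries and at 0.029 FPKM in BF-8d replicate 2. The labels call these cells adipocytes, and PLIN1 and ADIPOQ were listed at or near 0, so the cells are named here by depot and day. In bulk RNA, fewer cells of a type and less RNA per cell cannot be told apart.

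Among the 20 tested adipogenic transcription factors, 1 was higher and 1 lower in IMF-8d, and the median difference was 0.25. EBF2, a factor of committed adipocyte precursors, measured 1.71, 4.10 and 2.85 FPKM in BF-8d and 9.55, 13.3 and 8.83 FPKM in IMF-8d. Its 3 intramuscular libraries were all above the subcutaneous ones, and the difference was 1.60 ± 0.21 (SE, adjusted p = 6.68e-06). KLF5, an early activator of PPARG, lay the other way at 1.98, 3.04 and 2.68 FPKM in BF-8d and at 0.395, 0.399 and 0.147 FPKM in IMF-8d (difference -1.44 ± 0.33, adjusted p = 0.00213). That call was lost without BF-8d replicate 2 (adjusted p = 0.0118) and without IMF-8d replicate 3 (adjusted p = 0.0129). PPARG, the master regulator of adipogenesis, was low in both depots. It measured 1.28, 0.486 and 1.16 FPKM in BF-8d and 0.176, 0.192 and 0 FPKM in IMF-8d, and although the libraries did not overlap, its difference of -0.79 ± 0.30 did not pass the test (adjusted p = 0.0409), though it did with a pseudocount of 0.1 (-2.33, adjusted p = 0.00159). CEBPA, its partner, measured 2.21 to 2.55 FPKM in BF-8d and 1.28 to 2.11 FPKM in IMF-8d, and CEBPB, which acts earlier, 40.7 to 44.8 and 26.0 to 45.4 FPKM. Neither passed the test (adjusted p = 0.359 and 0.414).

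Genes of lipid droplets and of lipid uptake included some of the clearest subcutaneous excesses. PLIN2, which coats small lipid droplets in most cells that store lipid, measured 203, 103 and 185 FPKM in BF-8d and 25.8, 24 and 23.2 FPKM in IMF-8d. All subcutaneous libraries were far above the tight intramuscular ones, with a difference of -2.64 ± 0.23 (adjusted p = 5.41e-08). HILPDA, a droplet protein induced by hypoxia and an inhibitor of lipolysis, was the only other DEG among the 14 tested droplet and lipolysis genes, at 126, 113 and 142 FPKM in BF-8d and 37.3, 31.3 and 35.9 FPKM in IMF-8d (difference -1.84, adjusted p = 0.000109). ANGPTL4, a secreted inhibitor of lipoprotein lipase, was at 108, 98.2 and 119 FPKM in BF-8d and at 5.98, 6.08 and 9.29 FPKM in IMF-8d. That difference of -3.77 ± 0.27 (adjusted p = 2.6e-09) was the largest of the 16 tested genes of fatty acid uptake and activation, of which 4 were lower and 1 was higher in IMF-8d (2 higher without BF-8d replicate 1, IMF-8d replicate 1 or IMF-8d replicate 2). The fatty acid carrier FABP4 measured 6.0, 1.73 and 2.68 FPKM in BF-8d and 0.300, 0.236 and 0.676 FPKM in IMF-8d (difference -1.57 ± 0.24, adjusted p = 4.22e-05), a call lost in the fit on the 6 libraries alone. ACSL4, which activates arachidonic acid, was also lower in IMF-8d (-1.59) and the transporter SLC27A4 higher (1.10). LPL, the lipase that ANGPTL4 inhibits, was abundant in both depots at 611, 276 and 380 FPKM in BF-8d and 127, 141 and 93.7 FPKM in IMF-8d. Its difference of -1.75 ± 0.58 did not pass the threshold (adjusted p = 0.0241), although the libraries did not overlap and the fit on the 6 libraries alone called it.

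Of 18 tested genes of fatty acid synthesis, 2 were higher and 0 lower in IMF-8d (11 had an unadjusted p under 0.05), and both were desaturases of polyunsaturated fatty acids. FADS2 measured 12.4, 4.92 and 9.06 FPKM in BF-8d and 38.2, 35.7 and 41.2 FPKM in IMF-8d (difference 2.08 ± 0.19, adjusted p = 8.01e-08), and FADS1 was higher by 1.3. FASN, which makes palmitate, overlapped between the depots at 26.1 to 29.3 FPKM in BF-8d and 27.5 to 37.4 FPKM in IMF-8d (difference 0.19 ± 0.12, adjusted p = 0.244). SCD, the desaturase of saturated fatty acids, measured 27.3 to 37.4 and 18.6 to 26.8 FPKM (difference -0.58 ± 0.22, adjusted p = 0.0406). None of the 17 tested genes of triglyceride assembly was called by limma, 9 of them had an unadjusted p under 0.05, and their median difference was 0.18. Libraries of the depots did not overlap for 9 of these genes with higher and 4 with lower levels in IMF-8d, and for 9 and 2 of the fatty acid synthesis genes. Over all tested genes the shares were 30.8% higher and 18.1% lower. After median ratio scaling the median difference of triglyceride assembly was 0.049, and that of fatty acid synthesis fell from 0.22 to 0.11. One of 25 fatty acid oxidation genes was called, the thiolase ACAA2 (1.04), a call that was lost under both other scalings and without BF-8d replicate 2 (0.95). The count was 2 without BF-8d replicate 3 or IMF-8d replicate 2. Adipsin (CFD), a serine protease of the complement pathway secreted by adipocytes, was at 267, 237 and 336 FPKM in BF-8d against 35.6, 21.1 and 33.5 FPKM in IMF-8d (difference -3.20 ± 0.36, adjusted p = 1.27e-06). The retinol carrier RBP4 was higher in IMF-8d, at 7.10, 5.41 and 6.17 FPKM against 0.868, 1.18 and 1.15 FPKM (difference 1.80 ± 0.16, adjusted p = 4.75e-08). Some candidates named by the study did not pass the test, namely ENO2 (enolase, -0.86, adjusted p = 0.0462, but called without BF-8d replicate 2 at -1.25, adjusted p = 0.00673), CAT (catalase, 0.74, adjusted p = 0.155), PCK1 (glyceroneogenesis, 0.98, adjusted p = 0.352), SOAT1 (cholesterol esterification, -0.10, adjusted p = 0.864) and the gene the study names GK (glycerol kinase, 0.17, adjusted p = 0.781).

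Among the 12 largest intramuscular excesses of DEGs with a symbol and no overlap of libraries, THBS4, MGP, COMP and MFAP5 encode proteins of the extracellular matrix. They belong to a list of matricellular and elastic-fibre genes, whose products modulate how cells bind to the matrix or build its elastic fibres. Of 32 tested matricellular and elastic-fibre genes, 16 were higher and 2 lower in IMF-8d (1 lower whenever any of the 6 libraries was left out), and the median difference was 1.08. THBS4 (thrombospondin 4, chromosome 2, 88729531 to 88780759 in Sscrofa11.1), a protein of tendon and muscle connective tissue, measured 0.572, 0.826 and 0.632 FPKM in BF-8d and 118, 112 and 128 FPKM in IMF-8d. Its subcutaneous libraries were all under 1 FPKM, and its difference of 6.17 ± 0.11 (adjusted p = 4.17e-19) was the largest of all DEGs with a symbol. COMP, its cartilage and tendon relative, was already high in BF-8d at 37.2, 59.6 and 43.9 FPKM and reached 1035, 875 and 1078 FPKM in IMF-8d (difference 4.40 ± 0.46, adjusted p = 5.58e-07). MGP, which keeps soft tissue from calcifying, measured 7.71, 2.40 and 1.82 FPKM in BF-8d and 129, 72.2 and 93.4 FPKM in IMF-8d (difference 4.46 ± 0.56, adjusted p = 5.92e-06). MFAP5, a microfibril protein, was at 1.69, 2.55 and 1.12 FPKM against 42.4, 45.1 and 44.7 FPKM (difference 4.05 ± 0.29, adjusted p = 2.91e-09). In all of these genes the lowest intramuscular library was far above the highest subcutaneous one. TGFBI (3.27), FBLN1 (3.24), POSTN (2.79), SPP1 (2.58) and THBS3 (2.44) were also higher in IMF-8d, and LTBP1, which stores latent TGF-beta, was lower (-1.28, adjusted p = 3.75e-06).

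**Figure D2:**
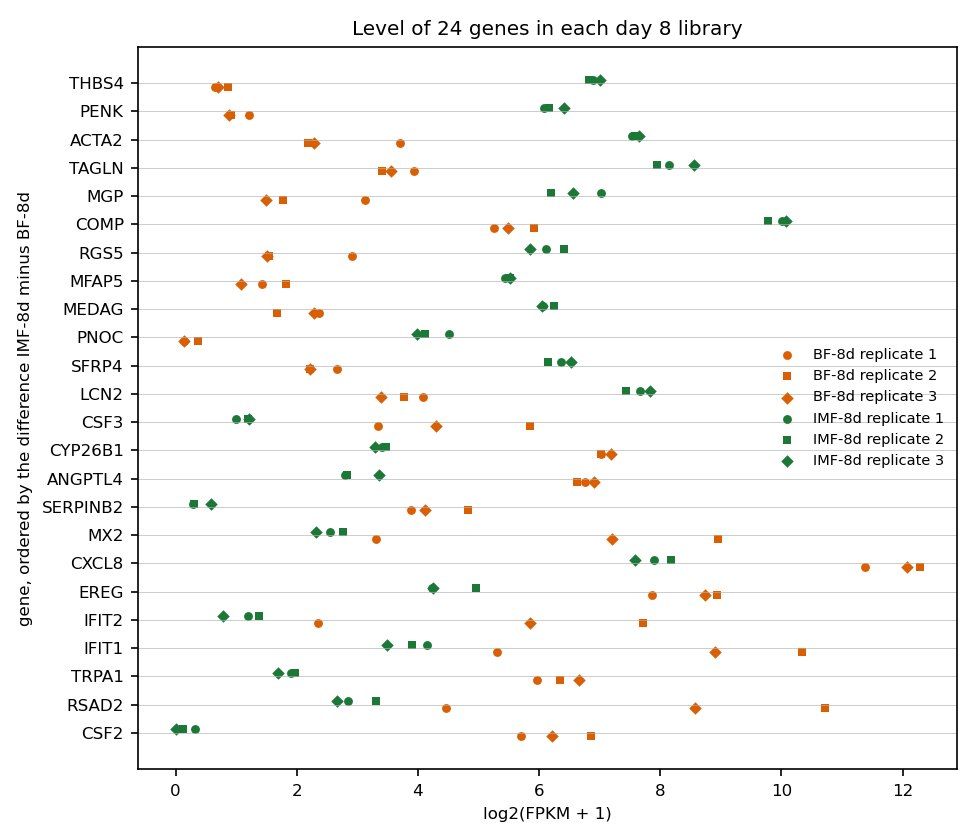
Level of 24 genes in each day 8 library as log2(FPKM + 1) (horizontal axis), the 12 largest differences in each direction among named DEGs whose libraries did not overlap. Orange symbols are the 3 BF-8d and green symbols the 3 IMF-8d libraries, the symbol shape gives the replicate, and BF-8d replicate 1 lies closest to the intramuscular libraries for RSAD2, IFIT1, IFIT2 and MX2.

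Of 37 tested genes of collagens, their modification and crosslinking, 6 were higher and 2 lower in IMF-8d, 24 lay above 0, and the median difference was 0.16. The count lower was 0 without BF-8d replicate 2 or IMF-8d replicate 2, and 1 without BF-8d replicate 3, IMF-8d replicate 1 or IMF-8d replicate 3. COL8A1, a short-chain collagen of vessels and smooth muscle, measured 8.41, 8.06 and 11.09 FPKM in BF-8d and 66.9, 76.8 and 60.05 FPKM in IMF-8d (difference 2.76 ± 0.27, adjusted p = 2.21e-07). COL14A1 (2.47) and COL11A1 (1.99), which regulate fibril diameter, lay in the same direction, and COL18A1, the basement membrane source of endostatin, lay in the other (-1.18, with the call lost at adjusted p = 0.0159 without BF-8d replicate 2 and 0.0133 without IMF-8d replicate 2). Small leucine-rich proteoglycans coat collagen fibrils, and 5 of 23 such genes and related ones were higher and 2 lower in IMF-8d (1 lower without BF-8d replicate 2). Asporin (ASPN) was at 12.9, 5.39 and 10.1 FPKM in BF-8d and at 80.1, 92.1 and 75.3 FPKM in IMF-8d (difference 3.06 ± 0.47, adjusted p = 4.56e-05), while lumican (LUM) was at 335, 272 and 377 FPKM against 154, 142 and 113 FPKM (difference -1.26 ± 0.18, adjusted p = 1.84e-05). Every IMF-8d library was above every BF-8d library for asporin and below every one for lumican.

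Of 29 tested matrix proteases and their inhibitors, 5 were lower and 2 higher in IMF-8d. The count lower was 3 without BF-8d replicate 3 or IMF-8d replicate 3, and the count higher was 1 in those fits, without BF-8d replicate 1 and under both other scalings. MMP1, the interstitial collagenase, measured 3820, 4047 and 4982 FPKM in BF-8d and 604, 408 and 333 FPKM in IMF-8d. Its groups were widely separated, but the difference of -3.29 ± 0.86 (adjusted p = 0.00544) was called in 0 of the 6 fits that left out 1 library (adjusted p = 0.0113 to 0.0245). The plasminogen activator PLAT lay in the other direction at 2.65, 3.03 and 2.71 FPKM against 23.7, 20.2 and 22.4 FPKM (difference 2.60 ± 0.17, adjusted p = 1.01e-09). TIMP3, an inhibitor of metalloproteases, was lower in IMF-8d (-2.24), and SERPINB2, a serine protease inhibitor, was at 13.8, 27.5 and 16.4 FPKM in BF-8d and at 0.225, 0.236 and 0.503 FPKM in IMF-8d (difference -3.88 ± 0.34, adjusted p = 4.73e-08).

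Genes of the smooth muscle type contractile apparatus had 11 of 21 tested members higher and 0 lower in IMF-8d (17 had an unadjusted p under 0.05), with a median difference of 1.06. The count higher was 10 under both other scalings and 9 to 11 without 1 library. ACTA2, smooth muscle actin and the usual marker of myofibroblasts, measured 12.1, 3.57 and 3.86 FPKM in BF-8d and 184, 190 and 200 FPKM in IMF-8d. BF-8d replicate 1 was the highest of its group and still far below the intramuscular libraries (difference 4.86 ± 0.55, adjusted p = 1.64e-06). TAGLN, an actin-binding protein of smooth muscle, was at 14.4, 9.62 and 10.7 FPKM against 282, 245 and 377 FPKM (difference 4.58 ± 0.47, adjusted p = 4.19e-07). ACTG2 (3.56), LMOD1 (1.93), TPM1 (1.87), CNN1 (1.72) and the myosin light chain MYL9 (1.61) were also higher, and MYH11, the smooth muscle myosin of mature cells, measured 0.138 to 0.220 FPKM in BF-8d and 0.428 to 0.440 FPKM in IMF-8d. Of 9 tested markers of mural cells (pericytes and vessel smooth muscle), 3 were higher and 0 lower in IMF-8d, 6 lay above 0 and 3 below, and the median difference was 0.15. The 3 were RGS5, COX4I2 and DES (DES not without IMF-8d replicate 3, adjusted p = 0.0107), and the 10 listed genes summed to 20.4 to 30.7 FPKM in BF-8d and to 96.1 to 113 FPKM in IMF-8d. RGS5, a regulator of G-protein signals in pericytes, accounted for much of that at 68.4, 83.8 and 56.7 FPKM in IMF-8d against 6.55, 1.89 and 1.85 FPKM in BF-8d (difference 4.14 ± 0.47, adjusted p = 1.6e-06). The part of mural cells in the contractile result was not tested.

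The promoter of the contractile DEG MYL9 is shown because it holds the CArG box, the element bound by serum response factor at smooth muscle genes. The sequence is the 250 bases before the RefSeq gene start in Sscrofa11.1, read 5′ to 3′ on the gene's strand, with the CArG match in capitals. The motif was searched on both strands.

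MYL9 (chr17:39787915-39788164, plus strand): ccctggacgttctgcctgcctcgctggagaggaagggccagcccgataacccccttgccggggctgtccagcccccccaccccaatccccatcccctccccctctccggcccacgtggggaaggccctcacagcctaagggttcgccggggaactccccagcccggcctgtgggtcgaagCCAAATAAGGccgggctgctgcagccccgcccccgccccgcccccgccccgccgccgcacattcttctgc

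The MYL9 window held 1 match, which begins 70 bases before the start. MYL9 itself measured 7.14, 7.44 and 7.6 FPKM in BF-8d and 23.1, 22 and 29.6 FPKM in IMF-8d. A match was found in 5 of the 21 windows of the tested contractile genes and in 2 of the 11 windows of those called, against 1.31% of 19506 protein-coding windows. A match is a description of the letters and not evidence of binding.

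Secreted signals differed in both directions. Chemokines and colony-stimulating factors, which call in and expand white blood cells, had 6 of 18 tested members lower and 0 higher in IMF-8d (11 had an unadjusted p under 0.05), with a median difference of -0.89. Only 3 were called when BF-8d replicate 2 was left out or the 6 libraries were fitted alone, and 9 when BF-8d replicate 1 was left out. CSF2 (GM-CSF, chromosome 2, 134354724 to 134357155), which drives macrophages and granulocytes, measured 51.1, 115 and 73.2 FPKM in BF-8d and 0.243, 0.0920 and 0 FPKM in IMF-8d. Its intramuscular libraries were all under 1 FPKM, and its difference of -6.11 ± 0.70 (adjusted p = 2.31e-06) was the largest on the subcutaneous side. CXCL8, the main neutrophil attractant, was among the most abundant transcripts of BF-8d at 2666, 4991 and 4328 FPKM, and was at 236, 289 and 192 FPKM in IMF-8d (difference -4.03 ± 0.77, adjusted p = 0.000488). CSF3 (G-CSF) measured 9.11, 56.7 and 18.7 FPKM against 0.996, 1.29 and 1.32 FPKM (difference -3.36 ± 0.70, adjusted p = 0.00094), a call lost in the fit on the 6 libraries alone. CXCL2, CCL4 and CCL3L1 were the other 3 DEGs of the list. BF-8d replicate 2 was the highest of all 6 libraries in 16 of the 18 members, the same library in which interferon-stimulated genes were highest.

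Cytokines and the receptors that share gp130 showed 5 of 19 members lower and 0 higher in IMF-8d (12 of the 19 had an unadjusted p under 0.05). Without 1 library the count was 2 to 4, with 3 without BF-8d replicate 2 and 2 without IMF-8d replicate 3. IL6ST, which is gp130 itself, was at 217, 332 and 298 FPKM in BF-8d and at 60.8, 66.3 and 49.2 FPKM in IMF-8d (difference -2.23 ± 0.26, adjusted p = 2.1e-06). IL1A measured 441, 637 and 545 FPKM against 79.6, 75.9 and 62.5 FPKM (difference -2.87 ± 0.67, adjusted p = 0.00244), a call lost without BF-8d replicate 2 (0.0107) and without IMF-8d replicate 3 (0.0116). LIF, a gp130 ligand, was lower by 2.26 in IMF-8d, a call lost whenever any 1 of the 6 libraries was left out (adjusted p = 0.0114 to 0.0277). IL11, another gp130 ligand, measured 1235 to 1367 FPKM in BF-8d and 735 to 906 FPKM in IMF-8d without passing the test (-0.67 ± 0.77, adjusted p = 0.534). Prostaglandin genes were split, with 2 of 13 higher and 2 lower (0 lower without BF-8d replicate 2, and 1 without BF-8d replicate 3 or any 1 of the IMF-8d libraries). PTGS2, the inducible cyclooxygenase, was at 1003, 2880 and 2932 FPKM in BF-8d and at 412, 503 and 343 FPKM in IMF-8d (difference -2.29 ± 0.65, adjusted p = 0.00912). That call was kept in 1 of the 6 fits without a library (adjusted p up to 0.0417). It was lost with a pseudocount of 0.1 (adjusted p = 0.0101), no filter on low values (adjusted p = 0.0150) or the replicate number as a block (adjusted p = 0.0131). The prostacyclin synthase PTGIS was higher in IMF-8d (1.60).

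Growth factors of the FGF and EGF type and their kin gave 5 lower and 2 higher members of 36 (1 higher without IMF-8d replicate 2). EREG (epiregulin), an EGF receptor ligand, measured 233, 489 and 426 FPKM in BF-8d and 17.7, 30.2 and 18 FPKM in IMF-8d (difference -4.04 ± 0.48, adjusted p = 2.89e-06). HGF, the ligand of the MET receptor, was at 96.3, 108 and 117 FPKM against 14.8, 10.3 and 9.13 FPKM (difference -3.15 ± 0.40, adjusted p = 6.68e-06), and VEGFA, the main angiogenic factor, at 842, 749 and 842 FPKM against 185, 168 and 173 FPKM (difference -2.20 ± 0.35, adjusted p = 7.48e-05). FGF2, a mitogen of precursors, lay in the other direction at 51.4, 52.6 and 54.5 FPKM in BF-8d and 183, 249 and 165 FPKM in IMF-8d (difference 1.87 ± 0.26, adjusted p = 1.43e-05). Each of these 4 genes separated the depots completely.

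The insulin-like growth factor axis was higher in IMF-8d in 7 of 22 tested genes and lower in 0 (15 of the 22 had an unadjusted p under 0.05), with a median difference of 0.42, and 5 were called higher under both other scalings. IGFBP2, a binding protein that holds IGFs in the medium, measured 957, 970 and 802 FPKM in BF-8d and 7635, 5582 and 8135 FPKM in IMF-8d, where it was one of the most abundant transcripts (difference 2.95 ± 0.43, adjusted p = 2.44e-05). IGFBP7 (2.86) and IGFBP4 (2.32) lay in the same direction. IGF1 itself was at 37.3, 55.9 and 37.8 FPKM against 118, 144 and 122 FPKM (difference 1.55 ± 0.43, adjusted p = 0.00743), and that call was kept in 1 of the 6 fits without a library (adjusted p up to 0.0282) and lost under both other scalings.

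Of 34 WNT pathway genes, 4 were higher and 3 lower in IMF-8d. The count higher was 8 without BF-8d replicate 1 and 7 without IMF-8d replicate 2. SFRP4, a secreted antagonist of WNT ligands, measured 5.31, 3.66 and 3.66 FPKM in BF-8d and 81.0, 70.2 and 91.7 FPKM in IMF-8d (difference 3.98 ± 0.35, adjusted p = 4.71e-08) and its relative SFRP2 was higher by 2.96. The ligand WNT5A, which signals without beta-catenin, was at 145, 129 and 145 FPKM in BF-8d and at 18.4, 19.4 and 14.9 FPKM in IMF-8d (difference -2.93 ± 0.48, adjusted p = 9.23e-05). Among 41 TGF-beta and BMP genes, 7 were higher and 1 lower, and the count lower was 2 after median ratio scaling, 3 after quantile normalization and 2 without BF-8d replicate 1. ID3, a direct target of BMP signals, measured 199, 211 and 227 FPKM against 963, 840 and 1021 FPKM (difference 2.14 ± 0.22, adjusted p = 4.33e-07), the BMP and activin antagonists FST (2.01) and CHRD (1.74) were higher, and TGFB2 was lower in IMF-8d at 14.1, 15.5 and 12.1 FPKM against 103, 43.6 and 77.6 FPKM (difference -2.27 ± 0.43, adjusted p = 0.000406).

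Of 13 tested neuropeptide and hormone genes, 2 were higher and 3 lower in IMF-8d, and both higher members were opioid peptide precursors. The lower members were EDNRB, EDN1 and ADM, and the count lower was 0 or 1 in each fit without BF-8d replicate 2, BF-8d replicate 3 or any 1 of the IMF-8d libraries, and 1 in the fit on the 6 libraries alone. PENK, the precursor of enkephalins (chromosome 4, 75525497 to 75530403), measured 1.32, 0.892 and 0.850 FPKM in BF-8d and 66.4, 70.3 and 84.2 FPKM in IMF-8d (difference 5.21 ± 0.30, adjusted p = 9.46e-11). PNOC, the precursor of nociceptin, was at 0.0979, 0.288 and 0.0985 FPKM against 21.8, 16.4 and 14.8 FPKM (difference 3.99 ± 0.28, adjusted p = 1.64e-09). Both were at most 1.32 FPKM in every subcutaneous library. TRPA1, a cation channel of irritants, had the opposite pattern at 61.9, 80.0 and 100 FPKM in BF-8d and 2.74, 2.92 and 2.21 FPKM in IMF-8d (difference -4.47 ± 0.32, adjusted p = 3e-09). AGT, the angiotensin precursor made by fat, was lower in IMF-8d at 35.4, 30.0 and 31.0 FPKM against 108, 87.4 and 88.9 FPKM (difference -1.53 ± 0.21, adjusted p = 1.61e-05).

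Retinoid genes differed on both sides of the pathway. CYP26B1, which degrades retinoic acid, measured 129, 129 and 145 FPKM in BF-8d and 9.64, 10.1 and 8.81 FPKM in IMF-8d (difference -3.69 ± 0.23, adjusted p = 3.53e-10). ALDH1A3, which makes retinoic acid, was at 2.04, 3.93 and 1.92 FPKM against 15.8, 19.9 and 20.8 FPKM (difference 2.49 ± 0.40, adjusted p = 8.01e-05). The degrading enzyme was thus high where the synthetic one was low, and of 20 tested retinoid genes 6 were higher and 2 lower in IMF-8d (1 lower without any 1 of the libraries except BF-8d replicate 1). HSD11B1, which regenerates active glucocorticoid inside cells, was higher in IMF-8d at 22.2, 21.7 and 24.5 FPKM against 4.38, 2.20 and 3.09 FPKM (difference 2.52 ± 0.33, adjusted p = 6.68e-06), and 3 of 25 glucocorticoid and cAMP response genes were higher and 1 lower. The count lower was 4 without BF-8d replicate 1, 3 without IMF-8d replicate 2, 2 without IMF-8d replicate 3, 4 after median ratio scaling and 3 after quantile normalization. LCN2, a carrier of small lipids and iron chelators, and MEDAG, a gene of adipocyte precursors, were also among the largest intramuscular excesses. LCN2 measured 15.9, 12.7 and 9.50 FPKM in BF-8d and 202, 172 and 227 FPKM in IMF-8d (difference 3.90 ± 0.33, adjusted p = 3.66e-08). MEDAG was at 4.15, 2.18 and 3.88 FPKM against 65.8, 75.3 and 64.8 FPKM (difference 4.01 ± 0.53, adjusted p = 1.01e-05).

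**Figure D3:**
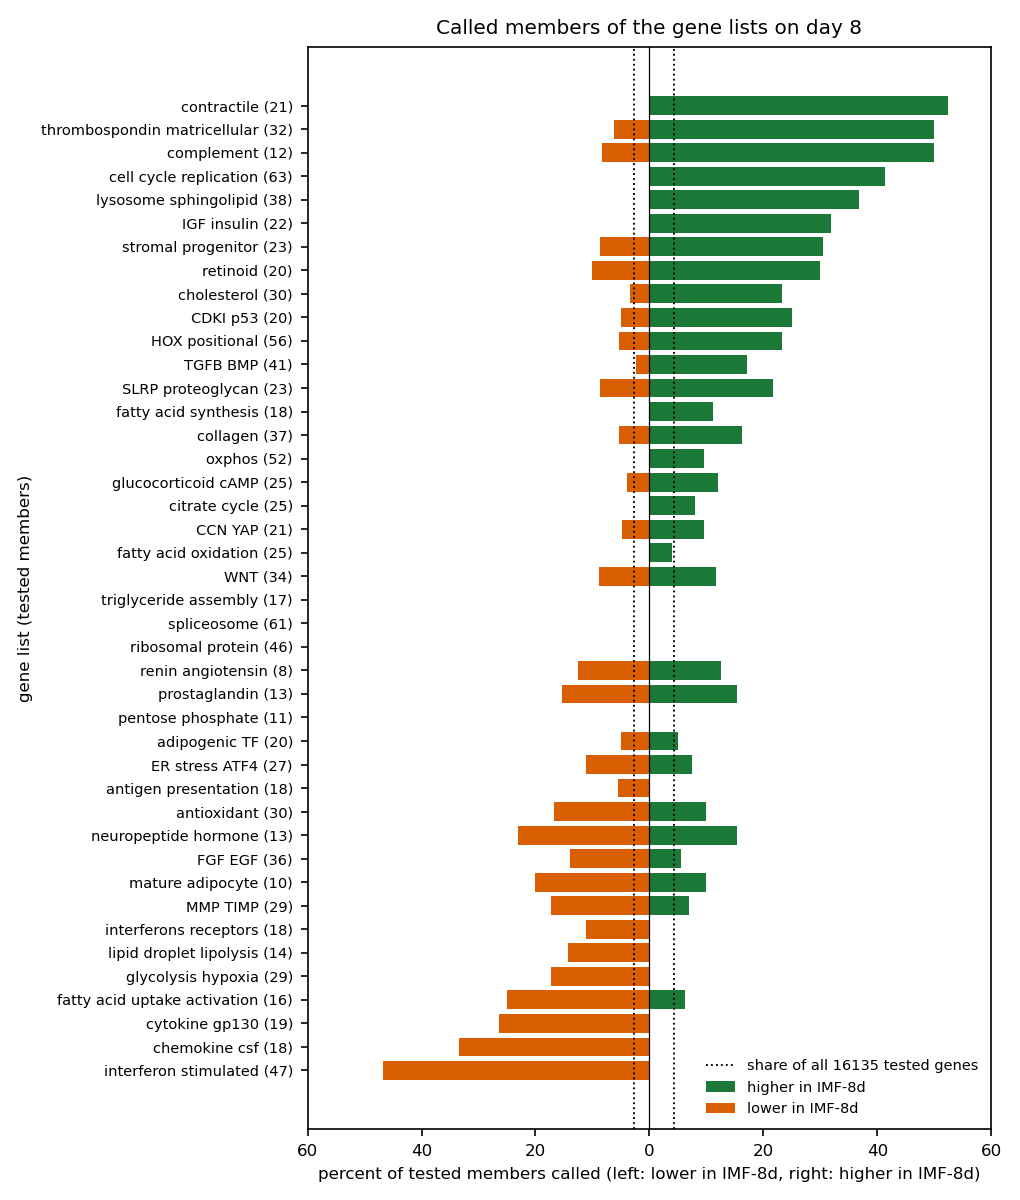
Percent of the tested members of each gene list called lower (orange, left) or higher (green, right) in IMF-8d, with the number of tested members in brackets and dotted lines at the share of all tested genes (2.65% lower, 4.31% higher). Contractile, matricellular, complement and cell cycle genes extend farthest to the right, and interferon-stimulated genes and chemokines farthest to the left.

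Interferon-stimulated genes were lower in IMF-8d on average, but the subcutaneous libraries did not agree among themselves. Of 47 tested genes, 22 were lower and 0 higher in IMF-8d (41 had an unadjusted p under 0.05), with a median difference of -1.86, and 14 had libraries that did not overlap, against 48.9% of all tested genes. All 47 were highest in BF-8d replicate 2, and all 47 were lowest of the BF-8d libraries in BF-8d replicate 1, whose summed level of 687 FPKM was below that of every IMF-8d library. RSAD2 (viperin, chromosome 3, 128880853 to 128897809), an antiviral enzyme, measured 21.1, 1696 and 381 FPKM in BF-8d and 6.20, 8.95 and 5.33 FPKM in IMF-8d (difference -4.98 ± 0.97, adjusted p = 0.00055). IFIT1, which binds foreign RNA caps, was at 38.6, 1290 and 476 FPKM against 16.8, 13.9 and 10.2 FPKM (difference -4.34 ± 0.95, adjusted p = 0.00144). For ISG15, a ubiquitin-like modifier, BF-8d replicate 1 (90.5 FPKM) was level with IMF-8d replicate 1 (90.5 FPKM) while the other two subcutaneous libraries held 2764 and 1111 FPKM, and the difference of -3.29 ± 0.96 did not pass the threshold (adjusted p = 0.0113), though it did without BF-8d replicate 1 and after quantile normalization. The interferon gene IFNB1 was at 0.0854, 5.62 and 1.19 FPKM in BF-8d and listed at 0 in all 3 IMF-8d libraries.

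The count of interferon-stimulated DEGs followed the libraries in the fit. It was 43 without BF-8d replicate 1, 5 without BF-8d replicate 2, 6 without BF-8d replicate 3, and 8 to 14 without 1 of the IMF-8d libraries. When limma was fitted to the 6 day 8 libraries alone, 0 of 47 were called and 10 had an unadjusted p under 0.05. In that fit RSAD2, IFIT1, IFIT2 and MX2 lost their calls, and IFIT1 and MX2 also lost them without BF-8d replicate 2 (adjusted p = 0.0122 and 0.0106). Antigen presentation genes had 1 DEG of 18 (NLRC5, lower in IMF-8d and called in 1 of the 6 fits without a library) and 8 without BF-8d replicate 1.

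**Figure D4:**
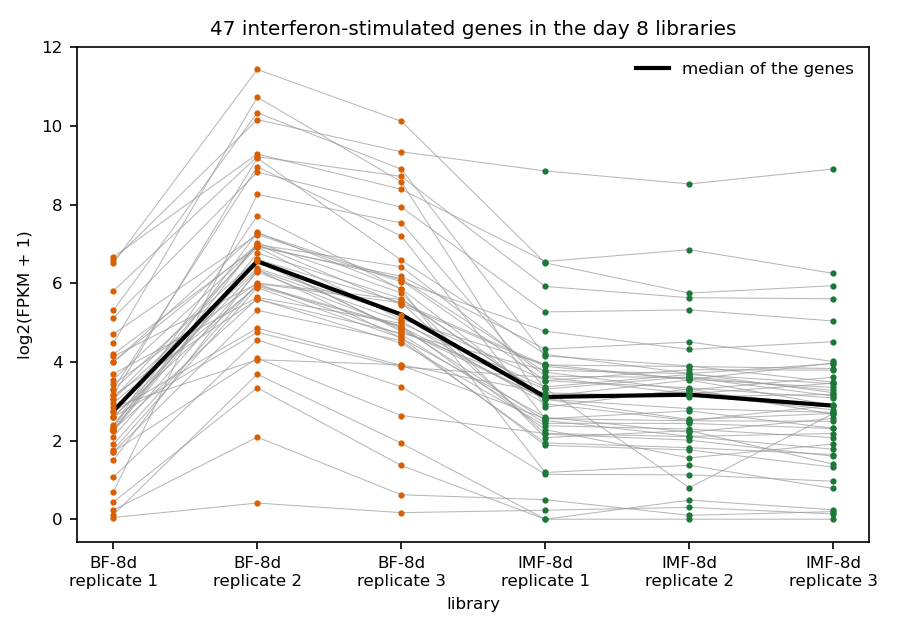
Level of 47 interferon-stimulated genes as log2(FPKM + 1) (vertical axis) in each day 8 library, with a grey line per gene and the median of the genes in black. The median was 2.75, 6.56 and 5.2 in BF-8d replicates 1, 2 and 3 and between 2.89 and 3.17 in the IMF-8d libraries.

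Promoters of interferon-stimulated DEGs are shown because this group moves together, and they hold the core of the interferon-stimulated response element, GAAANNGAAA, in capitals where it occurs on either strand. Overlapping matches run together in the capitals.

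RSAD2 (chr3:128897810-128898059, minus strand): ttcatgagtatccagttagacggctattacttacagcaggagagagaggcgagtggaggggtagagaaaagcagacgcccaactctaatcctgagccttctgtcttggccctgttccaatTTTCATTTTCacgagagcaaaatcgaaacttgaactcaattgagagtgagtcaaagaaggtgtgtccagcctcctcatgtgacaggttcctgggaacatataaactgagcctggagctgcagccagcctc

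IFIH1 (chr15:68985146-68985395, minus strand): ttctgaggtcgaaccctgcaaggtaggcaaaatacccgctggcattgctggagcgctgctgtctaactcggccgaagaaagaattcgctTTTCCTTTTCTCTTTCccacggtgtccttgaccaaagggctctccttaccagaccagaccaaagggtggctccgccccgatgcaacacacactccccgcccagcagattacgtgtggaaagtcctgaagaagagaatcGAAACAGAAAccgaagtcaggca

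The RSAD2 window held 1 match, and that of IFIH1, a sensor of double-stranded RNA, held 3. IFIH1 measured 2.26, 38.7 and 22.3 FPKM in BF-8d and 2.84, 2.53 and 2.13 FPKM in IMF-8d. The core was found in 15 of 44 windows of tested interferon-stimulated genes (34.1%) and in 6 of 20 windows of those called, against 2.99% of all protein-coding windows.

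Cell cycle and replication genes were higher in intramuscular cells, though at low levels in both depots. Of 63 tested genes, 26 were higher and 0 lower in IMF-8d (54 had an unadjusted p under 0.05), 60 lay above 0, and the median difference was 0.88. CDC20, which activates the anaphase-promoting complex, measured 0.703, 1.02 and 0.762 FPKM in BF-8d and 6.98, 4.93 and 6.93 FPKM in IMF-8d (difference 1.98 ± 0.27, adjusted p = 1.13e-05). TK1, the thymidine kinase of S phase, was at 1.32, 1.44 and 1.11 FPKM against 7.57, 5.73 and 7.91 FPKM (difference 1.81 ± 0.22, adjusted p = 2.88e-06), and UBE2C, the ubiquitin carrier of the same complex, was higher by 1.82. Every intramuscular library exceeded every subcutaneous one for these genes. Both other scalings called 23 of the list higher, and a pseudocount of 0.1 called 43. Of 20 cell cycle inhibitors and p53 targets, 5 were higher and 1 was lower in IMF-8d. CDKN2C was at 0.526, 0.569 and 0.696 FPKM in BF-8d and 3.96, 4.12 and 5.28 FPKM in IMF-8d (difference 1.76 ± 0.18, adjusted p = 2.84e-07), and CDKN2B at 34.2, 19.6 and 28.6 FPKM against 7.23, 6.84 and 5.99 FPKM (difference -1.86 ± 0.24, adjusted p = 5.72e-06).

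Promoters of the leading cell cycle DEGs are shown with the cell cycle homology region, TTTGAA on either strand, in capitals.

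CDC20 (chr6:167890588-167890837, minus strand): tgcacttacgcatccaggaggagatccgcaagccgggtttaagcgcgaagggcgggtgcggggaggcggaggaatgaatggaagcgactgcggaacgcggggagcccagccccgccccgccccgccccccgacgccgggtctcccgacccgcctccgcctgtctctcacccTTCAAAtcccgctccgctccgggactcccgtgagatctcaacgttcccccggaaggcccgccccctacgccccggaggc

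TK1 (chr12:3785747-3785996, plus strand): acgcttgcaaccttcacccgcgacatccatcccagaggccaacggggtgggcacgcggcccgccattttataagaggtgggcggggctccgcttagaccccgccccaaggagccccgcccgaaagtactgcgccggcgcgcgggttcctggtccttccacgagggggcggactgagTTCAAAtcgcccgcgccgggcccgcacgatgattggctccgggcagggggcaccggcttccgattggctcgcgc

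Both matches lie on the opposite strand, 79 and 74 bases before the start. This short motif was found in 10 of the 25 windows of called cell cycle genes (40%) and in 15 of 61 windows of those tested, against 12.5% of all protein-coding windows.

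Positional identity genes differed between the depots on day 8. Homeobox genes record where along the body a mesenchymal cell arose, and 13 of 56 tested genes of this kind were higher and 3 lower in IMF-8d, a count that was the same under both other scalings. HOXA5 measured 1.33, 0.821 and 1.43 FPKM in BF-8d and 14.6, 13.3 and 13.6 FPKM in IMF-8d (difference 2.77 ± 0.14, adjusted p = 2.05e-11). HOXA9 (2.33), HOXA10 (1.96), HOXA7 (1.71) and HOXC9 (1.66) lay in the same direction. HOXC4 lay in the other, at 3.51, 3.34 and 3.38 FPKM against 0.593, 0.243 and 0.472 FPKM (difference -1.63 ± 0.10, adjusted p = 1.85e-10). MEOX2, a homeobox gene of limb and trunk muscle, was at 0.0736 to 0.173 FPKM in BF-8d and at 3.23 to 4.16 FPKM in IMF-8d (difference 2.08 ± 0.16, adjusted p = 7.07e-09), and TBX3, a T-box factor, was lower in IMF-8d (-1.16), a call lost without BF-8d replicate 1 (adjusted p = 0.0123).

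Among other metabolic lists, cholesterol synthesis and handling had 7 of 30 genes higher and 1 lower in IMF-8d, with a median difference of 0.66. FDFT1 (squalene synthase) measured 7.84, 5.27 and 6.83 FPKM in BF-8d and 19.8, 21.7 and 22.5 FPKM in IMF-8d (difference 1.56 ± 0.12, adjusted p = 6.48e-09), HSD17B7 (1.84) and IDI1 (1.55) of the same route were higher, and the cholesterol exporter ABCA1 was lower (-1.15). Lysosomal and sphingolipid genes had 14 of 38 higher and 0 lower (23 had an unadjusted p under 0.05), and 12 higher under both other scalings. GLA, the galactosidase of glycolipids, was at 14.4, 11 and 13.8 FPKM against 46.5, 49.3 and 52.3 FPKM (difference 1.84 ± 0.31, adjusted p = 0.000115), and the protease CTSB at 213, 178 and 159 FPKM against 580, 467 and 767 FPKM (difference 1.69 ± 0.22, adjusted p = 6.31e-06). Of 12 complement genes, 6 were higher and 1, CFD, was lower. The count higher was 5 under both other scalings, 4 in the fit on the 6 libraries alone and 4 to 7 without 1 library. The largest difference of the list was that of C4A at 0.302, 0.973 and 0.373 FPKM in BF-8d and 19, 20 and 22.2 FPKM in IMF-8d (difference 3.81 ± 0.16, adjusted p = 1.38e-12). CLU (clusterin), which binds terminal complement, was at 375, 328 and 335 FPKM against 1734, 1438 and 1828 FPKM (difference 2.26 ± 0.19, adjusted p = 3.48e-08).

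Respiratory chain genes lay above 0 in 50 of 52 cases with a median difference of 0.65, but 5 were called. Without 1 library the count was 2 to 10, with 3 without BF-8d replicate 1 or IMF-8d replicate 1, 10 without IMF-8d replicate 2 and 2 without IMF-8d replicate 3. COX4I2 alone was called under each of the other scalings, and it is an isoform of a cytochrome oxidase subunit in lung and pericytes (difference 1.72 ± 0.27, adjusted p = 5.95e-05). Ribosomal protein genes had a similar median of 0.59 with 0 of 46 called by limma (2 higher without IMF-8d replicate 2) and 36 at an unadjusted p under 0.05. Their median was 0.45 with 24 at that p after median ratio scaling, and 0.40 with 31 after quantile normalization. Spliceosome genes had a median of 0.10 with 0 of 61 called and 25 at an unadjusted p under 0.05. Glycolysis and hypoxia genes had 5 of 29 lower and 0 higher in IMF-8d (15 had an unadjusted p under 0.05), and the members lower were the hypoxia targets PFKFB3, VEGFA, EGLN3, NDRG1 and ADM (ADM in 1 of the 6 fits without a library). PFKFB3, which drives glycolytic flux, measured 17.1, 48.5 and 27.5 FPKM in BF-8d and 3.77, 3.68 and 3.39 FPKM in IMF-8d (difference -2.67 ± 0.45, adjusted p = 0.00012), whereas the glycolytic enzymes LDHA (-0.12) and PGK1 (0.06) did not pass the test. Among 30 antioxidant genes, 5 were lower and 3 higher, with 18 above 0 and a median difference of 0.22. The higher members were GPX4, PRDX2 and GPX7, and 1 was called higher under both other scalings and without BF-8d replicate 2, IMF-8d replicate 1 or IMF-8d replicate 3. TXNRD1, a thioredoxin reductase, was at 179, 217 and 214 FPKM against 59.3, 61.7 and 54.5 FPKM (difference -1.78 ± 0.11, adjusted p = 4.53e-10), and NQO1, a quinone reductase (-1.91), and GCLC, which makes glutathione (-1.5), were also lower.

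Markers of other cell types were read in the same libraries. Of 16 myogenic markers, DES alone reached 1 FPKM, PAX7, MYF5, MYOD1 and MYF6 were listed at 0 in all 6 libraries, and the list summed to 0.453 to 0.756 FPKM in BF-8d and 2.06 to 3.15 FPKM in IMF-8d. Endothelial markers summed to 14.5 to 18.6 and 16.9 to 25.5 FPKM, with TIE1 and TEK listed at 0, PECAM1 higher (1.03, a call lost under both other scalings, and without BF-8d replicate 1 or IMF-8d replicate 3, where the difference was 0.88 and 0.97) and FLT1 lower (-1.08) in IMF-8d. Immune markers summed to 67.4 to 73.4 FPKM in BF-8d and 72.1 to 89.7 FPKM in IMF-8d, with CD3E, CD163, LYZ and MARCO listed at 0. Glial and epithelial markers stayed under 1 FPKM. Stromal progenitor markers were abundant in both depots, at 936 to 1200 FPKM in BF-8d and 1068 to 1215 FPKM in IMF-8d, with 7 of 23 higher and 2 lower in IMF-8d, among them DPP4, a marker of early fat precursors, at 12.4, 13.2 and 14.5 FPKM against 4.24, 4.38 and 2.89 FPKM (difference -1.58 ± 0.16, adjusted p = 3.56e-07), and PI16, another early marker, which was higher (1.51). PDGFRA, the general fibroblast and precursor receptor, overlapped at 150 to 277 FPKM in BF-8d and 198 to 274 FPKM in IMF-8d. The part of other cell types in the depot differences was not tested beyond these values.

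Which day 8 differences were already present in undifferentiated cells was read from the day 0 libraries, which share no library with day 8. Both days were tested in the same fit with a shared spread of each gene, so their calls are not independent. On day 0, 417 genes were called between the depots (2.58% of those tested), 302 of them higher (1.87%) and 115 lower (0.713%) in IMF-0d. Called on both days were 152 genes, which is 13.5% of the day 8 calls and 36.5% of the day 0 calls, and 138 of them had the same direction (117 higher and 21 lower in IMF). THBS4 and COMP were both among these, with day 0 differences of 4.08 and 4.96. The change of the depot difference from day 0 to day 8 was itself called for 804 genes (4.98%). The day 8 values that chose the 24 genes with the largest differences are part of this contrast, so their changes are given as a description. The depot comparison called 764 genes on day 2 (4.74%) and 1826 on day 4 (11.3%), and from day 4 to day 8 the depot difference changed for 1031 genes (6.39%). Days 0, 2, 4 and 8 gave PENK depot differences of 0.86, 1.19, -0.32 and 5.21. For ACTA2 they were 0.23, 2.53, 6.24 and 4.86, of which those from day 2 on were called (adjusted p = 0.0024 on day 2), and the change from day 4 to day 8 was not called (adjusted p = 0.239). For CSF2 they were 0, -0.073, -2.15 and -6.11, called on day 8 alone. For ANGPTL4 they were 0.80, -2.26, -2.88 and -3.77, called from day 2 on. THBS4 gained 2.09 on a difference it already had, and COMP changed by -0.56 ± 0.65 (adjusted p = 0.599).

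Opposite directions on days 0 and 8 were found for 14 of the 152 genes. Higher in IMF on day 0 and lower on day 8 were 9 genes, including the interferon-stimulated MX1, MX2 and HERC5, the protease inhibitor SERPINE2, the receptor NOTCH1 (1.03 on day 0, -1.57 on day 8) and the oxygenase CYP1B1. Lower on day 0 and higher on day 8 were 5 genes, including the matrix protein POSTN (-3.07 and 2.79), the tendon protein TNMD (-1.66 and 1.10), GPNMB and the complement factor CFB. The day 8 call of MX1 was kept in 1 of the 6 fits without a library (difference -1.54 without BF-8d replicate 2, adjusted p = 0.0544). That of MX2 was lost without BF-8d replicate 2 (-2.71, adjusted p = 0.0106), and that of HERC5 without BF-8d replicate 2, BF-8d replicate 3 or IMF-8d replicate 3 (adjusted p = 0.0207, 0.0174 and 0.0165). All 3 were lost in the fit on the 6 libraries alone. RSAD2 and IFIT1 also had positive day 0 differences (3.37 and 3.51) that did not pass the test on that day (adjusted p = 0.0245 and 0.0165).

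**Figure D5:**
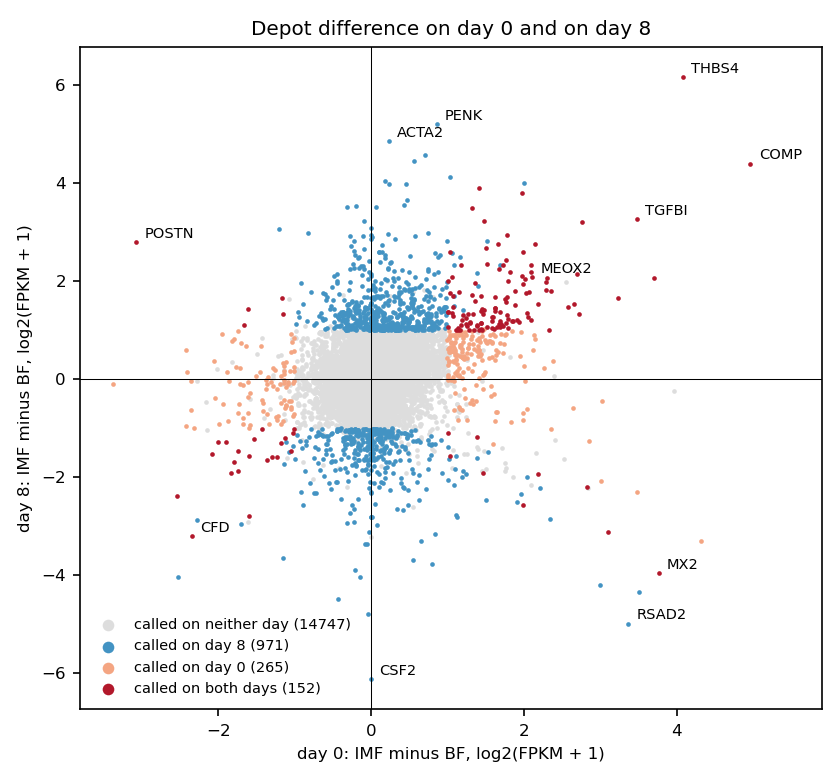
Depot difference in log2(FPKM + 1), IMF minus BF, on day 0 (horizontal axis) and on day 8 (vertical axis), 1 point per tested gene. Dark red marks the 152 genes called on both days, blue the 971 called on day 8 and light orange the 265 called on day 0 alone, with THBS4 and COMP at the upper right and MX2 at the lower right.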

How the data were processed

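RNA libraries of porcine BF and IMF cells were compared at the gene level. The authors aligned paired reads to Sscrofa11.1 with HISAT2, assembled and quantified transcripts with StringTie 1.3.4d, and called DEGs with DESeq2 1.6.3 (versions per the submitters' processing notes). The deposited values were FPKM per gene and library, so they were already scaled by library size and transcript length. It listed 25462 genes, among which 4191 were assembled by the authors outside the Ensembl annotation, and 14815 IDs matched a symbol. Of its sample columns, 0 belonged to no sample. A search for whole-read steps in 419 low genes placed at most 2.15% of the ratios in 1 narrow bin, so read counts could not be recovered from the FPKM, and the sequencing statistics of the study were not used here. An exact 0 can be a failed estimate, and such a gene is described as listed at 0.

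Genes were tested when FPKM summed over the 24 libraries exceeded 1. One mean per depot and day was fitted to log2(FPKM + 1) of all 24 libraries in R 4.3.3 by limma 3.58.1 (two-sided, moderated by eBayes with its trend and robust options), so that the 8 groups shared the spread of each gene. DESeq2 needs counts and was not used here. The authors' thresholds were kept, an adjusted p under 0.01 and an absolute difference of at least 1. All adjusted p-values are from limma. The fit was tested on simulated data. Fold changes computed by the authors were not used.

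The members and gene lists were chosen with earlier results of these data known, and lists are described by counts and medians without a test. Named were the 12 largest DEGs in each direction that had a symbol, reached a mean of 1 FPKM in either depot and did not overlap between depots, up to 3 DEGs per direction in each list, and a set of candidates and markers (ADIPOQ, PLIN1, PPARG and others). Other list members are printed as examples chosen after their values were seen. Alternatives were a pseudocount of 0.1, other filters on low values, median ratio scaling, quantile normalization, the replicate number as a block, eBayes without trend, the 6 compared libraries alone, and each library left out. Promoter windows were 250 bases before the RefSeq gene start. Some results are not reported here.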

Additional observations from a re-analysis of the deposited data

Results flagged for a closer look

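The change of the depot difference between days was tested as an interaction contrast in limma and passed the threshold in 804 genes between days 0 and 8 and in 1031 genes between days 4 and 8. The 24 genes with the largest day 8 differences were chosen on values that the contrast of days 0 and 8 contains, so their changes are a description. The changes of COMP (-0.56), CXCL8 (-1.51), CSF3 (-3.31) and MEDAG (2.01) did not pass the threshold, and the other 20 follow. On the log2 scale, the difference (IMF minus BF) moved toward the subcutaneous side by -8.35 for RSAD2, -7.85 for IFIT1, -7.71 for MX2 and -7.19 for IFIT2, and these 4 interferon-stimulated genes differed widely among the BF-8d libraries. Without BF-8d replicate 2 the values were -6.95, -6.77, -6.48 and -5.99, and without BF-8d replicate 1 they were -10.08, -9.28, -9.30 and -8.66, each still called, while the fit on the compared libraries alone did not call RSAD2 (adjusted p = 0.0110). It moved the same way by -6.11 for CSF2, -4.57 for ANGPTL4, -4.24 for CYP26B1, -4.04 for TRPA1, -3.89 for EREG and -3.68 for SERPINB2. Toward the intramuscular side it moved by 4.63 for ACTA2, 4.35 for PENK, 3.90 for MGP, 3.87 for TAGLN, 3.86 for MFAP5, 3.75 for PNOC, 3.53 for SFRP4, 3.11 for RGS5, 2.49 for LCN2 and 2.09 for THBS4. What sets these changes was not tested.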

How the results depend on the processing

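The count of DEGs on day 8 (1123) stayed within 1.5 times under every alternative except a pseudocount of 0.1, which gave 2154 (1368 higher and 786 lower in IMF-8d) and also raised the day 0 count to 759 (516 higher and 243 lower). The share of DEGs higher in IMF-8d was 48.5% after median ratio scaling and 49.9% after quantile normalization. Leaving out 1 library gave 913 to 1290 DEGs. Deviations of same-numbered BF-8d and IMF-8d libraries from their group means correlated at -0.084, -0.028 and -0.072 over 10915 genes. Genes are not independent replicates and each mean holds 3 libraries, so these values cannot decide whether replicate numbers pair the samples by animal. The fit with the replicate number as a block gave 1125 DEGs. Among the named genes that fit did not call PTGS2 (adjusted p = 0.0131) or ADM, and it called CCN2. Of 147 named DEGs, 102 kept their call under every alternative and 107 in every fit without a library. EFEMP1, LIF, MMP1, SLC7A5 and WNT11 kept it in none of the 6 such fits. Of the genes not called, 2 changed sign, GK to -0.15 without BF-8d replicate 2 (its range over the fits without a library ended at 0.41) and SOAT1 to 0.016 without IMF-8d replicate 3 (its range began at -0.30). The causes were not tested. The lack of read counts, 3 libraries per group and the unknown link of replicates to piglets limit all values.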
